A study of Mus musculus with 17 samples.

Results

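The transcripts described here come from 9 genes of the stress-responsive basic leucine zipper and Tribbles families: *Atf3*, *Atf4*, *Atf5*, *Ddit3*, *Cebpb*, *Cebpd*, *Trib1*, *Trib2* and *Trib3*. They were matched by symbol to 10 of the 55471 rows of a table of raw gene counts, because *Ddit3* has 2 Ensembl identifiers. The table covers RNA-seq of 17 hippocampal total RNA samples from C57BL/6 mice (C57BL/6J in the study's methods) aged 3 to 6 months. CBP-ifKO mice carry floxed *Crebbp*, which encodes the lysine acetyltransferase CBP, and a tamoxifen-inducible creERT2 driven by *Camk2a*, so that recombination truncates CBP in forebrain excitatory neurons only and other hippocampal cells keep it. Controls were littermates that, by the study's methods, lacked creERT2, although the labels name the *Camk2a* creERT2 strain for both genotypes. Mice of both genotypes received 5 doses of tamoxifen. Sal mice were never kindled and got saline. PTZ0 mice got the repeated injections of a kindling protocol, 45 mg/kg pentylenetetrazol (PTZ), a convulsant antagonist of GABA-A receptors, and saline 1 week later. PTZ45 mice got the same repeated injections and then a further 45 mg/kg PTZ. The tissue was collected 45 min after this final injection. By the study's account the repeated injections led to seizures in controls, whereas no CBP-ifKO mouse entered the progressive seizure stage. Seizure history thus differed between the genotypes, and its part in the values below was not tested. There were 3 libraries per group, each from 1 mouse by the study's account, except for Control PTZ45 with 2.

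These genes form a connected circuit. When kinases such as PERK or GCN2 phosphorylate the translation factor eIF2α, general protein synthesis drops while translation of the *Atf4* and *Atf5* mRNAs rises, and the ATF4 protein then activates *Atf3*, *Ddit3* (which encodes CHOP), *Trib3* and the genes of amino acid supply. ATF3 is also an immediate early gene product in neurons. C/EBPβ and C/EBPδ dimerize with several ATF proteins on composite DNA elements, and the Tribbles proteins are pseudokinases that bind the ubiquitin ligase COP1, through which TRIB1 and TRIB2 direct C/EBPα to degradation. CBP is a coactivator of CREB and of several of these factors. RNA-seq reports the mRNA only, so the translational step of *Atf4* and *Atf5* lies outside this measurement.

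Stretches upstream of annotated starts were searched for the DNA elements that CREB, ATF, C/EBP and AP-1 proteins bind. RefSeq windows of the build GRCm38.p6 were found for 7 of the 9 genes (2 windows for *Atf5*, none for *Cebpd* or *Trib1*), and the 250 bases before each start were searched on both strands. Other starts of these genes were not searched. Searches were for TGACGTCA (the full cAMP response element), TGACG (its half-site, which the full element contains), TGATGNAA (the composite C/EBP-ATF element) and TGANTCA (the AP-1 element). Over all 32851 RefSeq windows of this length, 1.55% held the full element, 17.8% the half-site, 3.45% the composite element and 6.75% the AP-1 element. The 3 sequences below are those of the gene with the largest response to PTZ, of the gene with the most matches, and of *Trib2*, whose CBP-ifKO libraries all lay below all control libraries. Capitals mark the matches, and a match on the opposite strand appears as its complement, such as CGTCA.
Atf3: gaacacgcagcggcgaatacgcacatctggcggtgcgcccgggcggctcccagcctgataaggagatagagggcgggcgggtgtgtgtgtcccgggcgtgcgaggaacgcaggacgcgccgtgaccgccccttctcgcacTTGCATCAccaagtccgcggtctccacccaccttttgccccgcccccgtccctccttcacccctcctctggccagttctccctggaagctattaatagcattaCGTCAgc
Cebpb: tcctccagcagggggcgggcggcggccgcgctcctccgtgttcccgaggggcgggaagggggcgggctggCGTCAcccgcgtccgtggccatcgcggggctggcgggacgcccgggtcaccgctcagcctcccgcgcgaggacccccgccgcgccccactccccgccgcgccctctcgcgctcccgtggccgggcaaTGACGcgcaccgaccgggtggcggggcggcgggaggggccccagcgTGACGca
Trib2: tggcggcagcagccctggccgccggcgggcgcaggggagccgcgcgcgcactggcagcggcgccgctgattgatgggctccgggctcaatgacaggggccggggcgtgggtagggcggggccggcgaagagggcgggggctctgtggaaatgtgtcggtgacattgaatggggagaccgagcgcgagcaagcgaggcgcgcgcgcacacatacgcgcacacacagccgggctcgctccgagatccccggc

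The *Atf3* stretch lies at chr1:191183334-191183583 on the minus strand, inside the span of the gene, so the stretch before its outermost start was not searched. It held the composite element from position -110 to -103, counted back from the start, and a half-site from -7 to -3. *Cebpb*, at chr2:167688665-167688914 on the plus strand, had half-sites beginning at -180, -53 and -7. *Trib2*, at chr12:15816786-15817035 on the minus strand, held none of the 4 patterns, and neither did the *Atf5* windows. Elsewhere, *Atf4* had 1 half-site from -12 to -8, *Trib3* had half-sites from -237 to -233 and from -10 to -6, and *Ddit3* had an AP-1 element from -242 to -236. None of the windows searched for the 7 genes held the full element. These matches describe letters in the window and say nothing of binding.

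The libraries held 5831992 to 18735643 counts. *Crebbp*, whose recombined allele still gives a transcript, had 1824 to 2429 normalized counts in the 8 control libraries and 1061 to 1337 in the 9 CBP-ifKO libraries, so no library lay in the range of the other genotype. All defining markers of the excitatory neuron, dentate granule, CA1 and CA3 lists were detected in every library. The summed level of the 4 CA1 pyramidal markers was 3827 to 4464 in controls and 2578 to 3480 in CBP-ifKO libraries, with 3 of the 4 called lower over all treatments, and 2 of 4 dentate granule (with 1 higher), 2 of 4 CA3, 2 of 6 interneuron and 3 of 6 astrocyte markers were called lower too, where 11.5% of all genes tested were. Of the 4 general excitatory neuron markers 1 was called lower, and their sum overlapped between genotypes, at 28010 to 36420 in controls and 31060 to 40560 in CBP-ifKO libraries. In bulk tissue, fewer cells of a type and less RNA per cell cannot be told apart. The summed choroid plexus markers reached 10830 to 44350 in 5 libraries (Control Sal replicate 2, CBP-ifKO Sal replicate 1, Control PTZ0 replicate 2, CBP-ifKO PTZ0 replicate 3 and CBP-ifKO PTZ45 replicate 2) and stayed between 414.5 and 1113 in the other 12, so the calls of *Atf3*, *Atf4*, *Trib1*, *Trib2* and *Cebpb* are also given without those 5. Leaving them out takes 1 library from each group except Control PTZ45. In a call lost this way, fewer mice and choroid plexus content cannot be told apart. By the labels, lane 3 held Control Sal and Control PTZ0, lane 4 Control PTZ45 and CBP-ifKO Sal, and lane 5 CBP-ifKO PTZ0 and CBP-ifKO PTZ45. Within a treatment, lane and genotype therefore cannot be told apart, and no PTZ45 comparison with Sal stayed within a lane. Nor did Control PTZ45 against Control PTZ0. Over all treatments a fit with lane as a covariate can be made, because lane 4 held both genotypes, if the PTZ response is taken as equal in them. In that fit, added after seeing the data, 0 of the 9 genes were called by DESeq2 between genotypes (3 had an unadjusted p below 0.05), with larger standard errors. The share of all genes called in that fit is not given here, so these counts cannot be set against the table. Any difference in PTZ response between the genotypes also enters its genotype value. The value from the lane fit is given for each gene called without lane.

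Levels spanned a wide range within the set. Per kilobase of exon, the mean normalized count over the 17 libraries was 456 for *Atf4*, 105 for *Trib2*, 76.6 for *Ddit3* and 35.6 for *Atf5*. It was 18.96 for *Cebpb*, 18.6 for *Cebpd*, 11.2 for *Trib1*, 5.78 for *Atf3* and 1.68 for *Trib3*. The ranges over libraries of neighbours in this order overlapped except for *Atf4* against *Trib2*, at 377 to 586 and 77.7 to 131 per kilobase, and *Ddit3* against *Atf5*, at 55.75 to 92.75 and 20.05 to 50.4. *Atf4* exceeded 97.9% of the 39260 genes with at least 1 count, whereas *Trib3* exceeded 35.0%. *Trib3* rested on 1 to 10 raw counts per library and *Atf3* on 3 to 61. The shorter *Ddit3* identifier, with 105 exonic bases, had 0 counts in all 17 libraries, and every *Ddit3* value here is that of the longer one. Exons of *Atf5* (with *Nup62* and *Il4i1*), *Ddit3* (with *Mars*), *Cebpb* (with *Tmem189*) and *Cebpd* (with *Spidr*) overlap a gene on the opposite strand, and since strand use in the counting is not stated, reads there may belong to either gene.

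**Figure D1:**
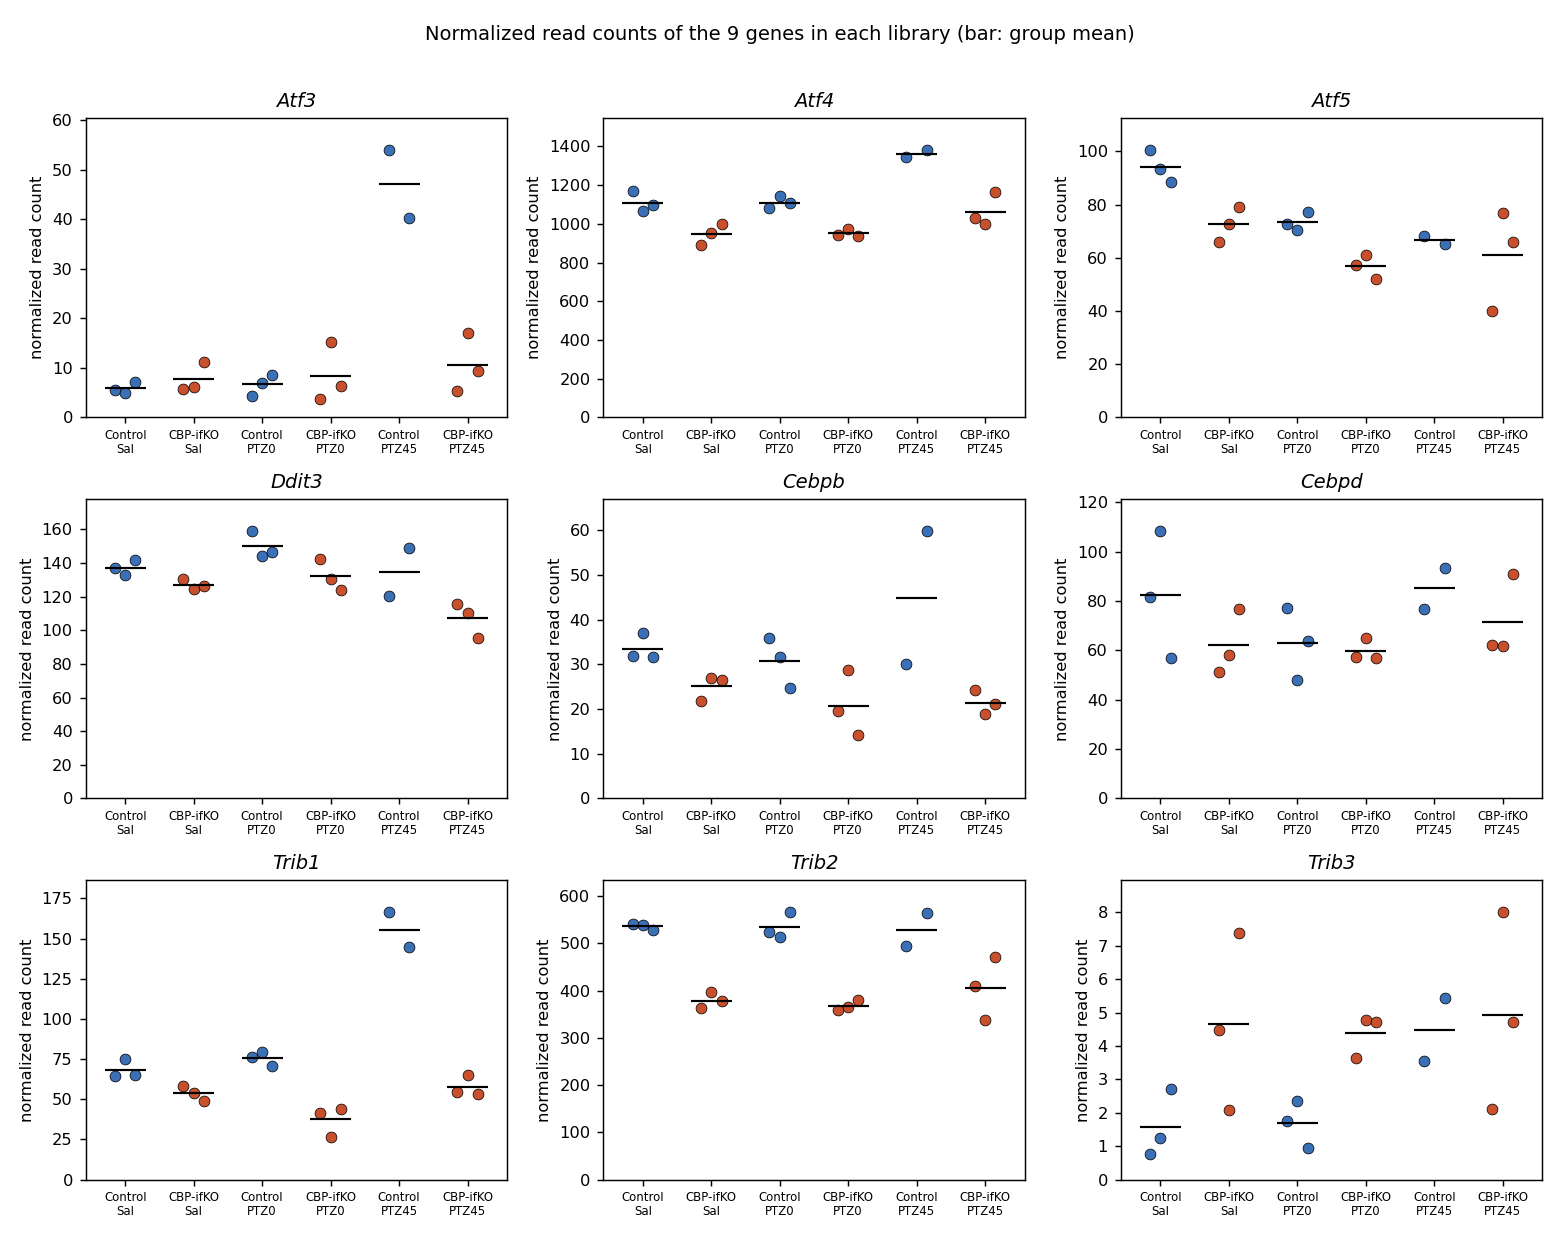
Normalized read count (raw count divided by the library's size factor, linear axis from 0) of each of the 9 genes in each library, by group; blue points are Control, orange points CBP-ifKO, and bars are group means. The 2 Control PTZ45 libraries stand above all 15 others for *Atf3* (53.9 and 40.2 against at most 16.99) and *Trib1* (166 and 145 against at most 79.7).

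*Atf3*, an ATF/CREB family member that often represses transcription and is rapidly transcribed after stress or neuronal firing, gave the largest response in the set. Its gene (ENSMUSG00000026628) spans chr1:191170296-191218039 of GRCm38, on the minus strand. In controls it was at 5.45, 4.925 and 7.23 normalized counts in Sal, at 4.39, 7.03 and 8.57 in PTZ0, and at 53.9 and 40.2 in PTZ45. Both Control PTZ45 libraries lay far above the 6 other control libraries. The fold over Sal was 7.96 (log2 fold change 2.99, SE 0.54, adjusted p = 7.9e-06 by the Wald test of DESeq2), and the fold over PTZ0, from the same PTZ45 libraries, was 7.13 (log2 2.83, SE 0.54, adjusted p = 2.7e-05). Of the saline-injected control groups, PTZ0 did not differ detectably from Sal (log2 0.17, 95% interval -1.28 to 1.62).

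In CBP-ifKO libraries, *Atf3* was at 5.76, 6.22 and 11.1 in Sal, at 3.65, 15.3 and 6.31 in PTZ0, and at 5.26, 16.99 and 9.43 in PTZ45. These 3 groups overlapped. PTZ45 against Sal gave a log2 fold change of 0.43 (95% interval -0.96 to 1.82), which was not called. After PTZ45 the CBP-ifKO level was 4.43-fold lower than the control level (log2 -2.15, SE 0.54, adjusted p = 0.0041), and every CBP-ifKO library lay below both control libraries. In Sal and PTZ0 the genotypes overlapped, with log2 differences of 0.41 and 0.36 and no adjusted p. The test of the difference between the 2 genotypes' responses over Sal gave -2.57 (95% interval -4.16 to -0.98), with an unadjusted p of 0.0015 and an adjusted p of 0.353, so it was not called. Over PTZ0 it gave -2.52 with an adjusted p of 0.414. Without the choroid-rich libraries the *Atf3* calls held, at 2.90 over Sal (adjusted p = 0.00045), 2.87 over PTZ0 (0.00068) and -2.69 between genotypes in PTZ45 (0.0052). Without Control PTZ45 replicate 1, DESeq2 set no adjusted p for *Atf3*, and the log2 fold changes were 2.77 over Sal and -1.92 for CBP-ifKO against Control in PTZ45. No adjusted p was set for the latter either without Control PTZ45 replicate 2 (-2.35) or CBP-ifKO PTZ45 replicate 1 (-1.82). The summed blood markers also differed, at 1410 and 1709 in Control PTZ45 against 846 to 1168 in the saline-injected controls and 887 to 1726 in CBP-ifKO PTZ45, where *Atf3* stayed at or below 16.99, and their part in the *Atf3* difference was not tested.

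*Trib1*, the pseudokinase best known for targeting C/EBPα through COP1, was the other gene that rose clearly with PTZ. Its gene (ENSMUSG00000032501) spans chr15:59648350-59657099 on the plus strand. Control libraries had 64.7, 75.1 and 65.1 normalized counts in Sal, 76.4, 79.7 and 70.5 in PTZ0, and 166 and 145 in PTZ45. Again both PTZ45 libraries lay above all 6 others. The fold over Sal was 2.29 (log2 1.19, SE 0.23, adjusted p = 5.8e-05) and over PTZ0 it was 2.06 (log2 1.04, adjusted p = 0.00051). Without Control PTZ45 replicate 1 the log2 fold change over Sal was 1.085, with an adjusted p of 0.115, and over PTZ0 it was 0.94 with no adjusted p. Without the choroid-rich libraries the rises were 1.26 (adjusted p = 0.0011) and 1.08 (0.0074). The summed blood markers given with *Atf3* were higher in these same Control PTZ45 libraries, and their part in the *Trib1* difference was not tested.

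In CBP-ifKO libraries, *Trib1* was at 58.3, 54.0 and 48.8 in Sal, at 41.4, 26.7 and 44.2 in PTZ0, and at 54.7, 65.0 and 53.1 in PTZ45. All 9 libraries lay at or below 65.0, and the highest of them, in PTZ45, only just passed the lowest control library at 64.7. PTZ45 was not called against Sal (log2 0.10, 95% interval -0.45 to 0.65). Against PTZ0 it was 0.62 (unadjusted p = 0.043, adjusted p of 1.0) although the 3 PTZ45 libraries lay above the 3 PTZ0 libraries, and both groups shared a lane. CBP-ifKO was lower than Control by 1.43 on the log2 scale in PTZ45 (log2 -1.43, SE 0.26, adjusted p = 4.9e-06) and lower in PTZ0 (log2 -1.01, SE 0.27, adjusted p = 0.0075). In Sal the difference was -0.34 and was not called, although the groups did not overlap. The PTZ0 call was lost without any 1 of Control PTZ0 replicates 1, 2 and 3 or CBP-ifKO PTZ0 replicate 2 (adjusted p = 0.109, 0.114, 0.0623 and 0.0896, log2 -1.001, -0.97, -1.05 and -0.82). It was also lost without the choroid-rich libraries (-1.12, adjusted p = 0.262), where the PTZ45 call held (-1.53, adjusted p = 0.00016), and the PTZ45 call was lost without Control PTZ45 replicate 1 (-1.32, adjusted p = 0.0692). The difference between the genotypes' responses was -1.09 over Sal (95% interval -1.73 to -0.45, unadjusted p = 0.00080, adjusted p = 0.212) and -0.42 over PTZ0 (95% interval -1.09 to 0.25), and neither was called.

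*Trib2*, the second Tribbles pseudokinase, showed no response to PTZ and a steady difference between genotypes. Its gene (ENSMUSG00000020601) spans chr12:15791727-15816922. The control libraries had 542, 538 and 528 normalized counts in Sal, 523, 514 and 566 in PTZ0, and 494 and 564 in PTZ45. The CBP-ifKO libraries had 363, 396 and 378 in Sal, 359, 365 and 381 in PTZ0, and 410, 337 and 470 in PTZ45. All 9 CBP-ifKO libraries were below all 8 control libraries, and their mean was 72.0% of the control mean. The log2 difference was -0.51 in Sal (SE 0.11, adjusted p = 0.00075), -0.54 in PTZ0 (SE 0.10, adjusted p = 1.6e-05), and -0.38 in PTZ45 (SE 0.15, adjusted p = 0.214, not called, but 0.027 in the single fit of all 17 libraries). Over all treatments it was -0.48 (SE 0.06, adjusted p = 1.9e-14), and the call held in 24 of 25 alternatives, the exception being lane as a covariate (-0.36, SE 0.19, adjusted p = 0.795). Without the choroid-rich libraries the Sal call was lost (-0.48, adjusted p = 0.323), and the calls in PTZ0 (-0.58, adjusted p = 0.016) and over all treatments (-0.44, adjusted p = 2.5e-07) held. PTZ45 against Sal gave -0.02 in controls (95% interval -0.26 to 0.21) and 0.10 in CBP-ifKO libraries (95% interval -0.17 to 0.37). The CA1 marker sums and the CA3 marker sums, at 1712 to 2274 in CBP-ifKO and 2233 to 2651 in control libraries, were also lower in CBP-ifKO libraries, without overlap, within each treatment, as were the astrocyte sums in Sal and PTZ0, the interneuron sums in Sal and PTZ45, and the endothelial and mural sums in PTZ0 and PTZ45. Their part was not tested.

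*Trib3* (ENSMUSG00000032715, chr2:152337422-152344032), the Tribbles gene that ATF4 and CHOP activate, was barely detected. It was at 0.78, 1.23 and 2.71 normalized counts in Control Sal and at 4.48, 2.08 and 7.39 in CBP-ifKO Sal. In PTZ0 it was at 1.76, 2.34 and 0.95 in controls and at 3.65, 4.77 and 4.73 in CBP-ifKO libraries. In PTZ45 it was at 3.54 and 5.43 in controls and at 2.10, 7.997 and 4.72 in CBP-ifKO libraries. It was the only one of the 9 whose fitted difference over all treatments was above 0 (log2 1.07, 95% interval 0.07 to 2.06, unadjusted p = 0.035). DESeq2 set no adjusted p at this depth, where a library held at most 10 reads, and the difference was not called.

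*Atf4*, the translationally controlled activator at the centre of the integrated stress response, was modestly lower in CBP-ifKO libraries. Its gene (ENSMUSG00000042406) spans chr15:80255184-80257541. Control libraries had 1169, 1067 and 1095 normalized counts in Sal, 1081, 1144 and 1106 in PTZ0, and 1345 and 1381 in PTZ45. CBP-ifKO libraries had 888, 950 and 1001 in Sal, 945, 976 and 937 in PTZ0, and 1028, 998 and 1163 in PTZ45. Within each treatment all CBP-ifKO libraries lay below all control libraries. Over all treatments CBP-ifKO had 84.1% of the control mean (log2 -0.27, SE 0.04, adjusted p = 1.3e-08), which was called in 24 of 25 alternatives, the exception being lane as a covariate (-0.37, SE 0.13, adjusted p = 0.262). Treatment by treatment, the difference was -0.24 in Sal (adjusted p = 0.235, not called), -0.22 in PTZ0 (adjusted p = 0.048) and -0.36 in PTZ45 (adjusted p = 0.027).

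The PTZ0 call of *Atf4* held in 1 of 14 alternatives and was lost without any single library, from CBP-ifKO PTZ0 replicate 2 (-0.24, adjusted p = 0.0559) to Control PTZ0 replicate 2 (-0.20, adjusted p = 0.354). The Sal difference, in turn, was called in the single fit of all 17 libraries (adjusted p = 0.0447). The PTZ45 call was lost in 7 of 13, among them without Control PTZ45 replicate 1 (-0.38, adjusted p = 0.341), Control PTZ45 replicate 2 (-0.34, 0.443), CBP-ifKO PTZ45 replicate 1 (-0.33, 0.213) and CBP-ifKO PTZ45 replicate 2 (-0.31, 0.356). After PTZ45, control *Atf4* was 1.23-fold the PTZ0 level (log2 0.29, SE 0.08, adjusted p = 0.032) and 1.22-fold the Sal level (log2 0.29, SE 0.10, adjusted p = 0.136, not called). With a correction for exonic GC content, which moved with the fold changes of this comparison across genes (Spearman's rho -0.578 over 13034 genes that share these libraries), the latter was 0.39 and called (adjusted p = 0.0081). The call over PTZ0 failed in 7 of 13 alternatives, among them without Control PTZ0 replicate 1 (0.27, adjusted p of 1.0), Control PTZ0 replicate 2 (0.32, 0.240), Control PTZ0 replicate 3 (0.29, 0.380) and Control PTZ45 replicate 2 (0.28, 0.319). Without the choroid-rich libraries *Atf4* kept its call over all treatments (-0.24, adjusted p = 0.00025) and lost the others, at -0.18 in PTZ0 (adjusted p = 0.932), -0.31 in PTZ45 (0.356) and 0.32 for Control PTZ45 over PTZ0 (0.240). The last 2 are the same fits as those without CBP-ifKO PTZ45 replicate 2 and without Control PTZ0 replicate 2. Each is counted under both names in its 7 of 13. In CBP-ifKO libraries the PTZ45 difference was 0.16 over both Sal and PTZ0 and was not called. With the GC correction it was 0.25 over Sal (unadjusted p = 0.010, adjusted p = 0.9999), in a comparison whose fold changes also moved with GC content (rho -0.555).

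*Atf5* (ENSMUSG00000038539, chr7:44812256-44816658), the other translationally induced activator, was at 101, 93.6 and 88.6 normalized counts in Control Sal and at 66.0, 72.6 and 79.1 in CBP-ifKO Sal. It was at 72.9, 70.3 and 77.1 in Control PTZ0 and at 57.2, 61.1 and 52.0 in CBP-ifKO PTZ0. After PTZ45 it was at 68.1 and 65.2 in controls and at 40.0, 77.0 and 66.0 in CBP-ifKO libraries. The genotypes separated in Sal and PTZ0 and overlapped in PTZ45. The difference over all treatments was -0.31 (SE 0.12, adjusted p = 0.039), a call that 17 of 25 alternatives ended. It was lost without any 1 library (adjusted p = 0.0518 to 0.1025) except CBP-ifKO Sal replicate 3, CBP-ifKO PTZ0 replicate 2, Control PTZ45 replicate 2 and CBP-ifKO PTZ45 replicates 2 and 3, and with the GC correction it was -0.22 (adjusted p = 0.1695). With lane as a covariate it was -0.13 (adjusted p = 0.9993). No treatment comparison was called, the largest being -0.50 for Control PTZ45 against Sal (95% interval -1.01 to 0.00036), which was -0.26 with the GC correction.

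*Ddit3* (ENSMUSG00000025408, chr10:127290774-127296288), the stress effector CHOP, was at 137, 133 and 142 in Control Sal and at 131, 124.5 and 126 in CBP-ifKO Sal. In PTZ0 it was at 159, 144 and 147 in controls and at 142, 131 and 124 in CBP-ifKO libraries. In PTZ45 it was at 120 and 149 in controls and at 116, 110 and 95.5 in CBP-ifKO libraries. The CBP-ifKO libraries lay below the control libraries within each treatment, and their mean over all treatments was 86.5% of the control mean. The difference over all treatments was -0.19 (95% interval -0.35 to -0.04, unadjusted p = 0.016, adjusted p = 0.074) and passed only with edgeR (adjusted p = 0.043). PTZ45 against Sal was -0.04 in controls and -0.25 in CBP-ifKO libraries, neither called.

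*Cebpb* (ENSMUSG00000056501, chr2:167688915-167690418), an activator induced by cAMP and inflammatory signals and a partner of the ATF factors, was at 32.0, 36.9 and 31.6 normalized counts in Control Sal and at 21.8, 26.98 and 26.6 in CBP-ifKO Sal. In PTZ0 it was at 36.0, 31.6 and 24.8 in controls and at 19.5, 28.6 and 14.2 in CBP-ifKO libraries. In PTZ45 the 2 controls stood apart at 30.1 and 59.8, and the CBP-ifKO libraries were at 24.2, 18.99 and 21.2. Its mean in CBP-ifKO libraries was 63.5% of the control mean (log2 -0.67 over all treatments, SE 0.19, adjusted p = 0.0049). The call was lost without the choroid-rich libraries (-0.52, adjusted p = 0.158) and with lane as a covariate (-0.90, SE 0.63, adjusted p = 0.970). It was also lost with the GC correction and the replicate block together (-0.46, adjusted p = 0.087), and no single library ended it. The PTZ45 difference of -1.05 had an unadjusted p of 0.022 and an adjusted p of 0.290, and it was -0.49 without Control PTZ45 replicate 2 and -1.48 without replicate 1. PTZ45 against Sal in controls was 0.41 (95% interval -0.36 to 1.18), not called. That value turned to -0.15 without Control PTZ45 replicate 2, and was 0.84 without replicate 1 and 0.79 with the GC correction (unadjusted p = 0.047, adjusted p of 1.0). *Tmem189*, which shares 312 exonic bases with this gene on the opposite strand, had 3428 counts in total against 496 for *Cebpb*.

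*Cebpd* (ENSMUSG00000071637, chr16:15887286-15891031), the acute phase C/EBP of astrocytes and other cells, was called in no comparison. It was at 81.8, 108 and 57.0 in Control Sal, at 51.25, 58.1 and 76.8 in CBP-ifKO Sal, at 77.2, 48.0 and 63.8 in Control PTZ0 and at 57.2, 64.9 and 56.8 in CBP-ifKO PTZ0. After PTZ45 it was at 76.9 and 93.4 in controls and at 62.0, 62.0 and 90.8 in CBP-ifKO libraries. The groups overlapped in each pair compared, and the difference over all treatments was -0.24 (95% interval -0.52 to 0.03, adjusted p = 0.238).

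Set against the whole table, the response to PTZ in controls called 2 of the 8 genes of the set that had an adjusted p, both higher, where 1.17% of the 17367 genes tested were called and 0.939% were called higher. Over PTZ0 it called 3 of 8, all higher, with 1.25% called in the table and 1.18% called higher. In CBP-ifKO libraries PTZ45 called none of the set over Sal (0.294% of the table) or over PTZ0 (0.0872%). At an unadjusted p below 0.05 the counts were 0 and 1, the latter being *Trib1*, where 877 and 559 genes of the table passed, and edgeR called none of the set. The earlier PTZ injections alone, PTZ0 against Sal, called none in controls (0.00843%) or in CBP-ifKO libraries (0.0112%). None of the set had an unadjusted p below 0.05, where 207 and 120 genes of the table did, and edgeR called none of the set. The tests of unequal response called none over Sal (0.329%) or over PTZ0 (0.423%), where 2 genes (*Atf3* and *Trib1*) and 1 (*Atf3*) had an unadjusted p below 0.05 and edgeR called none.

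**Figure D2:**
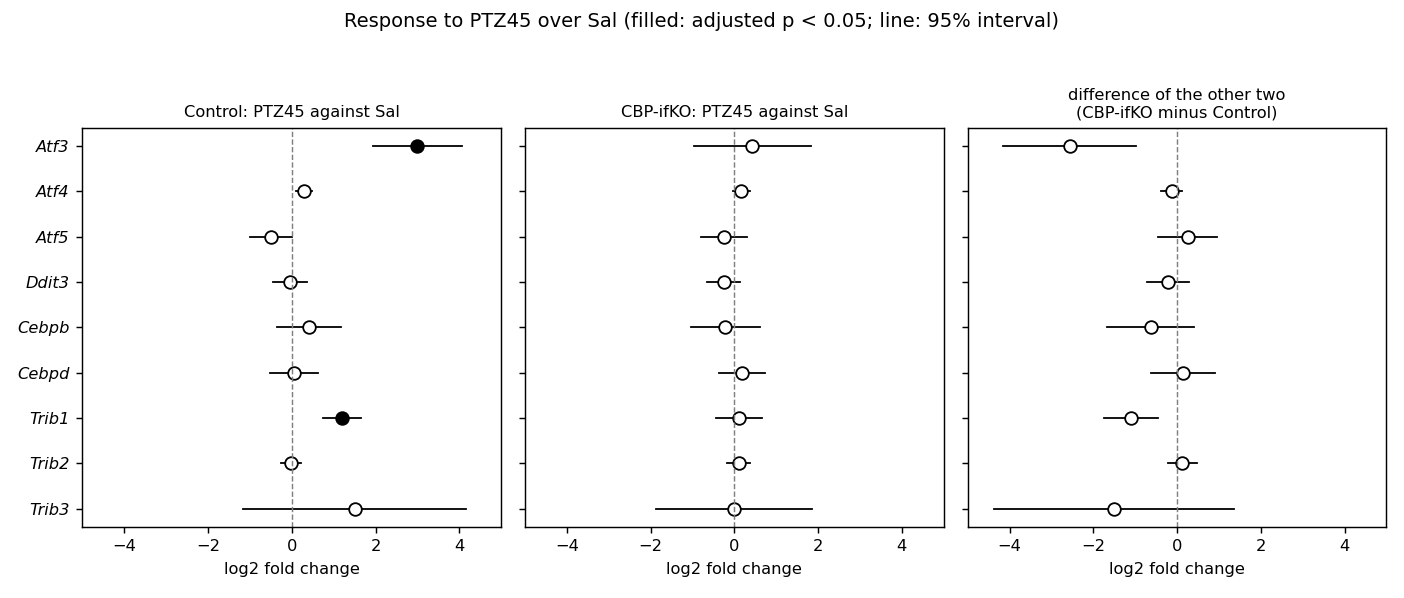
Log2 fold change (horizontal axis) of each gene for PTZ45 against Sal in Control and in CBP-ifKO libraries, and the difference between those responses; lines are 95% intervals and filled points have an adjusted p below 0.05. Only *Atf3* (2.99) and *Trib1* (1.19) are filled, in controls, and their differences of response (-2.57 and -1.09) have intervals below 0 but are open.

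Between genotypes, 1 of 7 was called in Sal (*Trib2*, lower; 2.04% of the table called, 1.77% called lower). In PTZ0 it was 3 of 6 (*Trib1*, *Trib2* and *Atf4*, lower; 6.68% called, 5.25% called lower). In PTZ45 it was 3 of 8 (*Atf3*, *Trib1* and *Atf4*, lower; 3.07% called, 2.82% called lower). Over all treatments it was 5 of 8 (*Trib1*, *Cebpb*, *Trib2*, *Atf5* and *Atf4*, lower), where 19.3% of the table was called and 11.5% called lower. With lane as a covariate *Trib1* was at -0.76 (SE 0.39, adjusted p = 0.749), and none of the set was called. The share of all genes called in that fit is not given here. The median log2 difference of the 9 genes over all treatments was -0.31, beside 0.0098 for all genes tested. *Atf3* was called in PTZ45 but not over all treatments (-0.51, 95% interval -1.29 to 0.28).

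**Figure D3:**
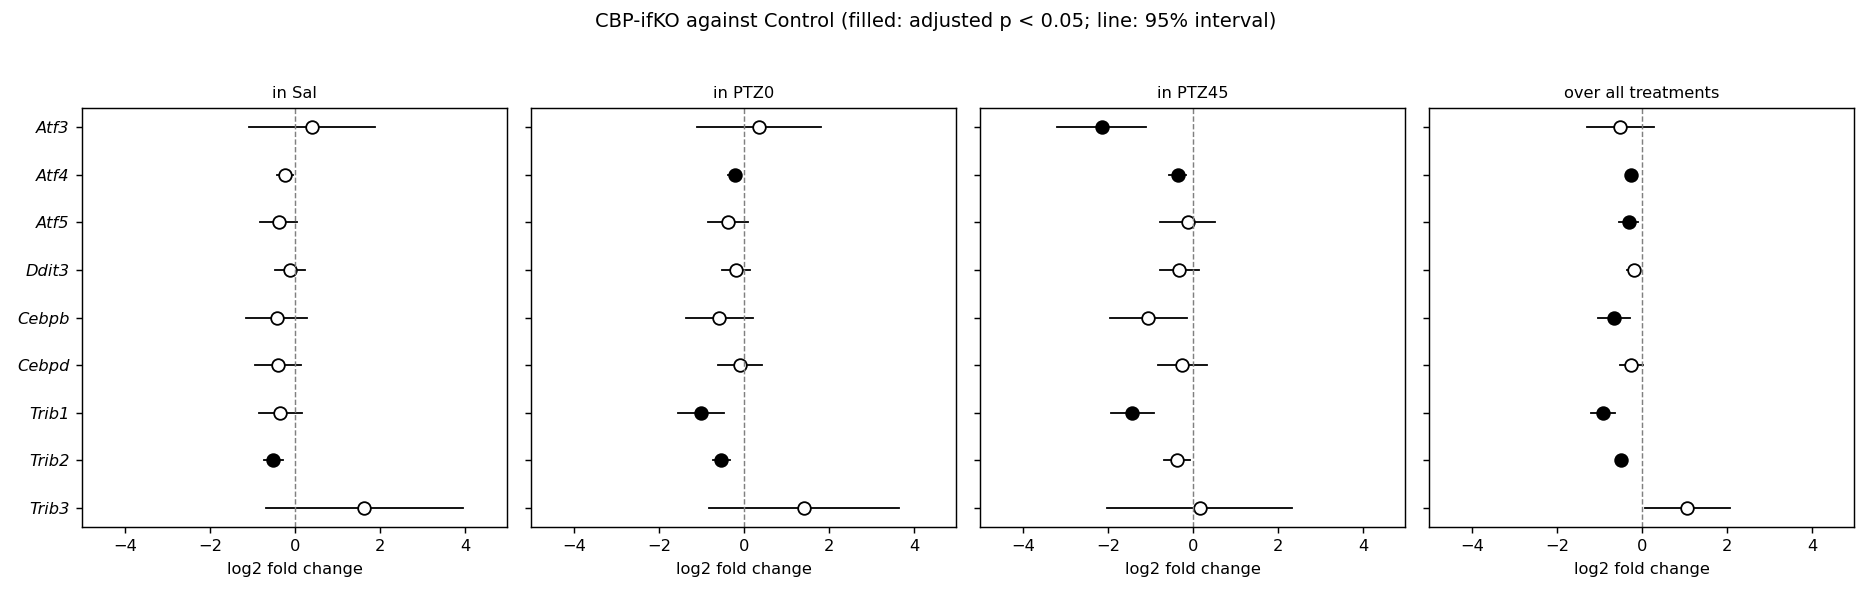
Log2 fold change of CBP-ifKO against Control (horizontal axis) for each gene in Sal, PTZ0, PTZ45 and over all treatments; lines are 95% intervals and filled points have an adjusted p below 0.05. *Trib2* keeps nearly the same place in all 4 panels (-0.51, -0.54, -0.38 and -0.48), whereas *Atf3* lies at 0.41 and 0.36 in Sal and PTZ0 and at -2.15 in PTZ45.

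The wider stress-response circuit was followed with a list of 41 genes of the integrated stress and unfolded protein responses. PTZ45 over Sal in controls called 2 of the 38 with an adjusted p, both higher, where 1.17% of all genes tested were called and 0.939% called higher. *Ppp1r15a*, which encodes the GADD34 subunit that dephosphorylates eIF2α, rose from 67.8 to 98.5 normalized counts in Sal to 357 and 419 in PTZ45 (log2 2.20, SE 0.19, adjusted p = 2.1e-27). *Hsp90b1*, an endoplasmic reticulum chaperone, was 0.34 higher, a call lost in 11 of 13 alternatives. The median of the list was -0.0089, beside 0.0056 for all genes tested. Over PTZ0, *Ppp1r15a* was the only call of 38 (log2 2.04), where 1.25% of all genes were called. In CBP-ifKO libraries none of the list was called for PTZ45 over Sal or PTZ0, where 0.294% and 0.0872% of all genes were, and *Ppp1r15a* was at 91.5 to 122 there. Unlike *Atf3*, it was called in the test of unequal response, with a difference of -1.98 over Sal (SE 0.29, adjusted p = 4.1e-09) and -1.72 over PTZ0.

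Between genotypes over all treatments, 5 genes of the same list were higher in CBP-ifKO libraries and 4 lower of 38, with a median of -0.0098. Of all 18682 genes tested, 19.3% were called, of which 1449 were higher and 2157 (11.5% of those tested) lower. With lane as a covariate *Eif2ak2* stayed called (1.15, adjusted p = 0.0206), *Cdkn1a* was at 0.0015 with no adjusted p, *Dbp* turned to 0.12 (adjusted p = 0.9993), and the other list genes named here as called over all treatments kept their sign and lost the call. These lane values rest on an equal PTZ response in both genotypes. From PTZ0 to PTZ45 the *Eif2ak2* means went from 133 to 102 in controls and from 190 to 208 in CBP-ifKO libraries. The higher ones were *Eif2ak2* (PKR, an eIF2α kinase activated by double-stranded RNA, 0.70), *Hspa5* (the chaperone BiP, 0.28), the eIF2α kinases *Eif2ak1* (0.15, lost in 8 of 25 alternatives) and *Eif2ak4* (0.14), and *Dnajc3* (a co-chaperone that inhibits such kinases, 0.14, lost in 13 of 25). The lower ones were *Cdkn1a* (the cell cycle inhibitor p21, -1.01), *Ddit4* (an inhibitor of mTORC1, -0.25), *Atf6* (a sensor of the unfolded protein response, -0.25) and *Slc3a2* (the heavy chain of amino acid transporters, -0.15). *Eif2ak2* was called in each treatment, at 0.63 in Sal, 0.52 in PTZ0 and 1.03 in PTZ45, calls that 9 of 14, 8 of 14 and 3 of 13 alternatives ended. *Hspa5* was called in Sal (0.32, ended by 7 of 14) and PTZ0 (0.35, ended by 1 of 14), and *Atf6* in PTZ0 (-0.21, ended by 10 of 14) and PTZ45 (-0.30, ended by 10 of 13). *Ppp1r15a* was lower in CBP-ifKO libraries in PTZ45 (-1.90, adjusted p = 3.5e-20).

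Among 15 relatives of the ATF and C/EBP factors, none was called for PTZ45 in either genotype, where at most 1.25% of all genes tested were. Over all treatments 2 of 11 were lower in CBP-ifKO libraries, near the 11.5% of the table called lower, both of the PAR family that follows the circadian clock: *Dbp* (-0.39, adjusted p = 4.4e-06) and *Hlf* (-0.34, adjusted p = 1.1e-07). *Hlf* was also called in PTZ0 (-0.31, ended by 2 of 14 alternatives) and PTZ45 (-0.46, ended by 6 of 13) and *Dbp* in PTZ0 (-0.62, ended by 2 of 14). The median of this list was -0.11. Of 13 partners and clients of the Tribbles proteins, 12 were in the table with counts, 11 of them with an adjusted p over all treatments. None was called for PTZ45 over Sal or PTZ0, where at most 1.25% of all genes tested were. Over all treatments the kinases *Map2k1* (-0.29) and *Map2k4* (-0.19) were lower in CBP-ifKO libraries, with a list median of -0.075. Of all genes tested there, 19.3% were called and 11.5% called lower. *Map2k1* was called in Sal (-0.34, ended by 10 of 14 alternatives) and PTZ0 (-0.32) too.

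The genes with the nearest profiles were sought among 13014 protein-coding genes, as the root mean square difference over the 17 libraries of log2 (normalized count plus 1) centred on each gene's mean. For *Atf3* they were *Gm13889* and *Ppp1r15a*, both at 0.526, beside a spread of 0.966 of *Atf3* itself. For *Trib1* they were *Per1*, a clock gene that CREB induces (0.216), and *Fosl2*, an AP-1 subunit (0.282), beside a spread of 0.592. *Per1* had group means of 480, 462 and 1109 in Control Sal, PTZ0 and PTZ45 and 425, 334 and 448 in the CBP-ifKO groups, highest in Control PTZ45 and lowest in CBP-ifKO PTZ0 as for *Trib1*. For *Trib2* they were *Camk2n1*, an inhibitor of CaMKII (0.0871), and *Vxn* (0.0914), beside a spread of 0.260, and for *Atf4* they were *Stmn2*, a neuronal regulator of microtubules (0.0658), and *Ssx2ip* (0.0744), beside 0.171. *Cebpb* was nearest to *Mex3b* (0.223) and *Hist1h1d* (0.232), beside 0.437, and *Atf5* to *Ankrd9* (0.167) and *Klf15* (0.178), beside 0.304. The points share libraries and depth, and the likeness is a description.

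**Figure D4:**
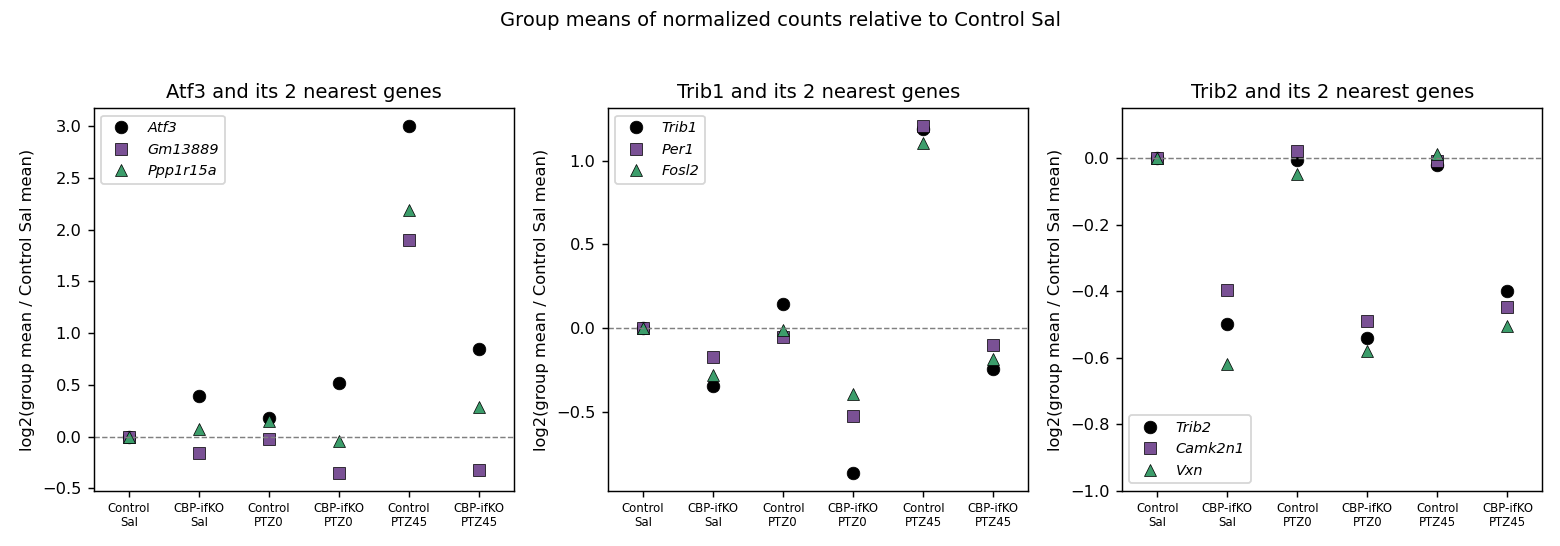
Log2 ratio of each group mean of normalized counts to the Control Sal mean (vertical axis) for *Atf3*, *Trib1* and *Trib2* and for the 2 genes nearest to each in profile. *Atf3* and *Trib1* depart upward with their neighbours in Control PTZ45, whereas *Trib2*, *Camk2n1* and *Vxn* lie below 0 in the 3 CBP-ifKO groups.

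Calls differed widely in how they withstood other processing, which ranged from other size factors and filters to the loss of single libraries. The lower *Trib2* in PTZ0 was called in every alternative run, and the lower *Trib1*, *Trib2* and *Atf4* over all treatments in every one except the fit with lane as a covariate. The calls of *Atf5* over all treatments and of *Atf4* in PTZ0 were lost in most of them.

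**Figure D5:**
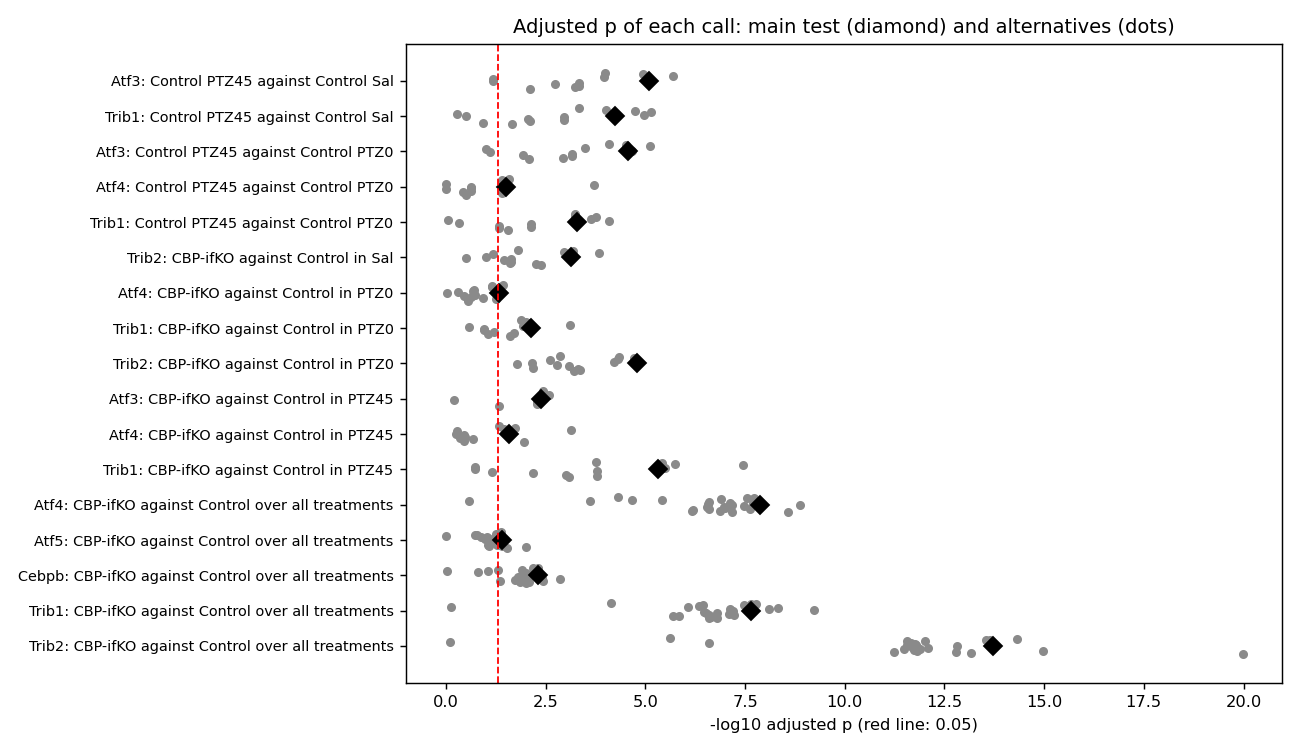
Minus log10 of the adjusted p (horizontal axis) for each gene and comparison called; diamonds are the values reported, grey dots the alternatives that gave an adjusted p, and the dashed line is 0.05. *Trib2*, *Atf4* and *Trib1* over all treatments each have 1 dot to the left of the line, the fit with lane as a covariate, and *Atf4* in PTZ0 has 13 of 14 dots to its left.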

How the data were processed

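The authors deposited raw counts per gene, not normalized. They trimmed single-end reads of 50 bases with Trim Galore 0.6.4, aligned them with STAR 2.6.1 to GRCm38, kept reads with a mapping quality above a limit and assigned them to exons of an Ensembl annotation using Rsubread, strand setting not given in the sources used here. Of 18 count columns, 1 matched no sample and was not used. By its name it resembles a library of Control PTZ45, which has 2 libraries here and on which the *Atf3* and *Trib1* responses rest. Symbols and positions came from GENCODE M21 (GRCm38), which held 99.6% of the identifiers.

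Each comparison was fitted to its own libraries over all genes with the two-sided Wald test of DESeq2 1.42.0 in R 4.3.3, following the study's methods (DESeq2 1.30.1 there), and a gene was called at a Benjamini-Hochberg adjusted p under 0.05. DESeq2 sets no adjusted p for genes of low mean. Genotype over all treatments was fitted with treatment as a covariate, and interactions to 4 groups. Normalized counts are counts divided by DESeq2 size factors. Alternatives were edgeR 4.0.16 (quasi-likelihood), TMM factors, a filter of at least 10 counts in 2 libraries, 1 fit of all 17 libraries, the replicate number as a block, a correction for exonic GC content, each library left out and, chosen after seeing the data, the 5 libraries with over 5000 summed choroid plexus counts left out and, over all treatments, lane as a covariate. The fits were tested on simulated data. A true log2 change of 1 was called in 64% of the changed genes for Control PTZ45 against Sal and in 55% for the interaction over Sal. Only genes above a limit of mean count were changed there, which left out *Trib3*.

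The 9 genes, the lists and the rule for genes named (the 9, the called genes of 3 lists, up to 5 per direction, and the 2 nearest profiles of each called gene) were chosen with earlier results of these data known. A result for 1 list gene is not reported here. Each library is a separate mouse by the study's account, and p-values measure the spread between mice. Replicate libraries differed by more than counting noise. Depth limits *Atf3* and *Trib3* most.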

Additional observations from a re-analysis of the deposited data

How the results depend on the processing

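No log2 fold change of a called gene of the set changed sign, in the comparison that called it, under any alternative run. With the replicate block, alone or with the GC correction, 0 genes of the set were called in Control PTZ45 against Sal, in Control PTZ45 against PTZ0, in Sal and PTZ45 between genotypes, and 1 in PTZ0 between genotypes. Over all treatments, the block with the GC correction called 3 of the 5. The replicate numbers did not pair the samples: correlations of same-numbered deviations ran from -0.523 to 0.532, and were above 0.1 for every number in 3 of 15 pairs of groups, none of them a compared pair with 3 numbers. The single fit of all 17 libraries called 2 in Sal between genotypes. Without the choroid-rich libraries, 0 were called in Sal, 1 in PTZ0 and 3 over all treatments. With lane as a covariate, 0 were called over all treatments, in a fit whose share over all genes is not given here. Leaving out 1 library gave 0 to 2 calls for Control PTZ45 against Sal, 1 to 2 for Control PTZ45 against PTZ0, 1 to 2 between genotypes in PTZ0 and 0 to 3 in PTZ45. The 0 and the 1 of the Control PTZ45 comparisons, and the 0 in PTZ45 between genotypes, were without Control PTZ45 replicate 1, and the cause of the other changes was not tested. Of the values of single genes under alternatives, 1354 stayed on their side of the threshold, 71 lost a call and 5 gained one. Groups of 2 or 3 mice and reads in the single digits limit *Atf3* and *Trib3*.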
